A study of Mus musculus with 45 samples.

Results

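Mouse embryonic stem cells (mESCs) given bone morphogenetic protein 4 (BMP4) after a day of retinoic acid (RA) were compared at 24 h and at 6 h of BMP4, using 3 libraries of bulk RNA for each time. These 6 libraries are part of a series of 45, and all 11220 genes of the deposited table were compared. B5 was taken on day 5, after RA for 24 h and then 24 h of 100 nM RA with 10 ng/ml BMP4. B6hr was taken on day 4.25, after the same day of RA and 6 h of RA with BMP4. R5 and R6hr were taken at the same times under 100 nM RA alone, and R4 is the day 4 culture from which both arms continued. All of these cultures had first been brought to neuromesodermal progenitors with basic FGF and the WNT activator CHIR, so none of them lacks RA, FGF or CHIR exposure. B5 differs from B6hr in hours of BMP4, in hours of RA and in day of culture, and these cannot be told apart between the B groups alone. The labels name the cells only as mESCs, with no line or clone.

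BMP ligands bind paired type I and type II receptors, which phosphorylate SMAD1, SMAD5 and SMAD9, and these enter the nucleus with SMAD4. The Id and Msx genes and the inhibitors Smad6, Smad7 and Bambi are direct early targets, and the inhibitors feed back on the pathway. In the dorsal spinal cord, BMPs from the surface ectoderm and roof plate pattern the dorsal progenitors and their interneurons, and BMP signalling also takes part in the formation of neural crest and of lateral and extraembryonic mesoderm. RA given to caudal progenitors favours spinal identity and activates Hox genes.

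The 6 h libraries did not follow their labels in their BMP targets. Over 18 immediate targets, the mean log2 level was 10.54, 9.84 and 10.34 in the B5 libraries 1 to 3, against 7.13, 9.62 and 10.20 in the B6hr libraries 1 to 3. In the RA-alone arm it was 8.63, 9.06 and 9.17 in R5 and 7.85, 9.89 and 10.48 in R6hr, with 8.55, 8.48 and 8.79 in R4. The library labelled B6hr replicate 1 was thus below every R4 library, as was R6hr replicate 1, and the libraries labelled R6hr replicates 2 and 3, which should have had no BMP4, were above every R5 library and slightly above the B6hr libraries of the same number. Groups were kept as labelled, and results are given with and without the library labelled B6hr replicate 1. The deviations of B6hr and R6hr libraries from their group means correlated across genes at 0.59, 0.19 and 0.46 for the same numbers. B6hr replicate 2 correlated at 0.15 with R6hr replicate 3. Whether the numbers pair the 6 h libraries across the arms was not tested apart from this mismatch of labels.

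**Figure D1:**
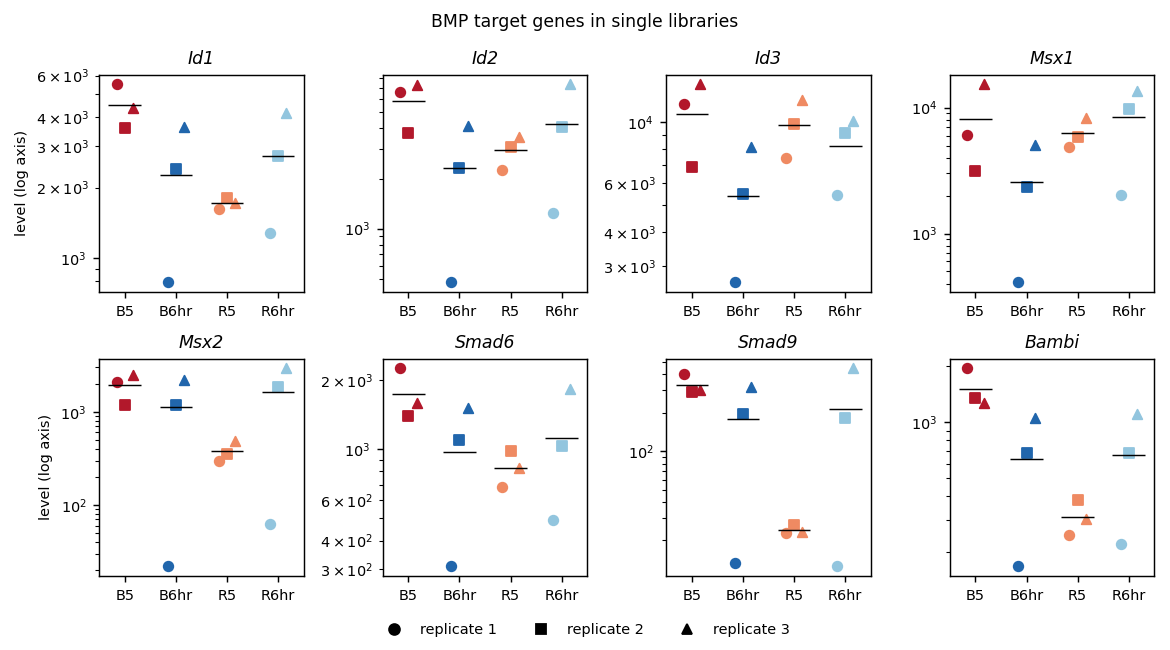
Level (log axis) of 8 BMP target genes in each library of B5, B6hr, R5 and R6hr; marker shapes give the replicate number and lines the mean. In each panel the lowest B6hr library is replicate 1, and R6hr replicates 2 and 3 stand near or above B6hr replicates 2 and 3.

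Of the 18 immediate targets, 6 rose and 0 fell in B5 (limma-trend, Benjamini-Hochberg adjusted p under 0.05), where 17.2% of all genes rose and 11.2% fell. Their median log2 change was 1.15, against 0.06 over all genes. Without the library labelled B6hr replicate 1, 0 of the 18 rose and their median change was 0.39. The count was also 0 without B5 replicate 1, 2 without B5 replicate 3 and 11 without B6hr replicate 3. With the 6 libraries fitted alone 0 of the 18 were called.

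Id1 (chr2:152736251-152737410 on mm10), an inhibitor of basic helix-loop-helix factors, had levels of 5498, 3575 and 4364 in B5, against 790, 2396 and 3632 in B6hr. The groups overlapped, with B6hr replicate 3 above B5 replicate 2, and B6hr replicate 1 lay far below the other 5 libraries. The log2 change was 1.21 ± 0.38 (SE, n = 3 each; limma adjusted p = 0.019), and 0.58 (limma adjusted p = 0.25) without the library labelled B6hr replicate 1. Its relative Id2 had levels of 6586, 3733 and 7306 in B5, against 476, 2318 and 4156 in B6hr, a change of 1.76 ± 0.62 (limma adjusted p = 0.034). Without that library the change of Id2 was 0.86 (limma adjusted p = 0.33), and the groups overlapped here too. The other called targets were the pathway inhibitors Smad6 (1.09) and Bambi (1.59), Gata3 (2.14) and the T-box factor Tbx2 (2.46), and each call was lost without the library labelled B6hr replicate 1.

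The targets Msx1 and Msx2, homeobox genes of the dorsal neural tube, did not pass the test, and their spread between libraries was wide. Msx2 had levels of 2112, 1185 and 2487 in B5, against 22.0, 1172 and 2213 in B6hr. B6hr replicates 2 and 3 were within the B5 range, and the log2 change of 2.24 (limma adjusted p = 0.11) was 0.19 without the library labelled B6hr replicate 1. Id3 (1.08), Msx1 (1.97), Smad9 (1.76), Id4 (0.58) and Smad7 (0.54) also stayed above an adjusted p of 0.05. Smad9, a BMP receptor-regulated SMAD, had levels of 402, 290 and 303 in B5 and 13.4, 198 and 322 in B6hr.

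The promoter of Id2 is shown with those of Hand2 and Gata5, the lateral mesoderm genes described below, because the 3 genes were called higher together. Each sequence holds the 250 bases before the RefSeq gene start on GRCm38.p6, read 5′ to 3′ on the strand of the gene. Capitals mark GGCGCC, a motif bound by BMP-regulated SMADs, and CCAAT or its complement ATTGG, searched on both strands; the motifs do not overlap one another. The windows are chr12:25096093-25096342 (minus strand) for Id2, chr8:57320733-57320982 (plus strand) for Hand2 and chr2:180334680-180334929 (minus strand) for Gata5.
Id2: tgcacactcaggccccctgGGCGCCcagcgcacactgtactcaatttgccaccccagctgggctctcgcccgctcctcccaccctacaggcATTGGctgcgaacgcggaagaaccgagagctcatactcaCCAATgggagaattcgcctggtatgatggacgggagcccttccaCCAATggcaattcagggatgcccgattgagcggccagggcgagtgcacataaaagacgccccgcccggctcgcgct
Hand2: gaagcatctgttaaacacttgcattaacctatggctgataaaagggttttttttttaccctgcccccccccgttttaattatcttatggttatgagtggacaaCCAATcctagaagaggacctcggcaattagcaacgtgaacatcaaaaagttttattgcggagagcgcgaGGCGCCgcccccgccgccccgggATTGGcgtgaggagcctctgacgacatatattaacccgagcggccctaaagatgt
Gata5: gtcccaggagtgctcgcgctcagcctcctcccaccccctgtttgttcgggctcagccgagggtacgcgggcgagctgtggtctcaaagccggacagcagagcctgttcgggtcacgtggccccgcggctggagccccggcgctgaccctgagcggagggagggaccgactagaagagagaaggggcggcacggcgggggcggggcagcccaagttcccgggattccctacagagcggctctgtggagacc
Id2 held 1 GGCGCC and 3 CCAAT matches, Hand2 1 and 2, and Gata5 0 of each. The promoters of Rgs5, which also rose, and of Trh, which fell, held 0 and 2 GGCGCC and 1 and 0 CCAAT matches in that order. Of 32851 RefSeq promoters of the same length, 9.59% held GGCGCC and 33.8% held CCAAT on either strand.

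Over all genes, 3182 (28.4%) were called between B5 and B6hr, 1929 higher and 1253 lower in B5. By 2-fold or more, 757 were higher and 260 lower. B5 and B6hr did not overlap for 4856 genes (43.3%). The table lists genes that the authors found changed in at least 1 of 12 deposited comparisons, this one among them, so these shares are larger than over all genes tested. Of the listed genes, 684 stand in the table through this comparison alone, in the authors' deposited table. Without the library labelled B6hr replicate 1, 1401 genes were called, of which 924 (8.24%) rose and 477 (4.25%) fell, and 1368 of these were among the 3182. The count was 1443 without B5 replicate 1 and 1928 without B5 replicate 3. Of 153 genes named by rule, 126 were called. Of these 126, 55 lost their call without the library labelled B6hr replicate 1, 51 without B5 replicate 1 and 39 without B5 replicate 3. The list counts below stand against 17.2% of all genes risen and 11.2% fallen. Without the library labelled B6hr replicate 1 those shares were 8.24% and 4.25%. In bulk RNA, fewer cells of a type and less RNA per cell cannot be told apart.

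The split of directions depended on the scaling. With the deposited levels 60.6% of called genes were higher in B5, against 46.4% after quantile normalization and 37.1% after each library was scaled to the same median. The median log2 change of all genes was 0.06, −0.05 and −0.11 under these scalings. Changes below are on the deposited scale, and the called genes given with a value below kept their direction under both other scalings. Of the 126 called genes named by rule, 13 lost their call after quantile normalization and 9 after median scaling. With the 6 libraries fitted alone, 46 lost it.

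The 12 largest rises were in genes whose B6hr libraries all lay below all B5 libraries, as their choice required. Shisa3 (chr5:67607882-67623552), of a family known in frog to retain WNT and FGF receptors in the endoplasmic reticulum, had levels of 6204, 1858 and 1913 in B5, against 27.5, 42.1 and 66.6 in B6hr. All B5 libraries were far above all B6hr libraries, and the log2 change was 6.01 ± 0.73 (SE, n = 3 each; limma adjusted p = 2.1e-06). Leaving out the library labelled B6hr replicate 1 gave 5.70 (limma adjusted p = 7.4e-05).

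Rgs5, a regulator of G protein signalling used as a marker of pericytes, had levels of 394, 181 and 157 in B5, against 4.80, 11.4 and 20.5 in B6hr. The change was 4.28 ± 0.62 (limma adjusted p = 1.7e-05), and the groups lay well apart. Adh1 (4.04) encodes an alcohol dehydrogenase that can oxidise retinol, and Slc22a3 (4.04) an organic cation transporter. Unc5c, a netrin receptor, had levels of 4133, 1053 and 2424 in B5, against 35.2, 169 and 298 in B6hr, a change of 4.16. In all 3 B5 libraries Unc5c was above its highest 6 h level. The calpain family member Capn6 (4.73), Ccdc42 (4.71), Tfap2b (4.50), Gimap6 (4.50), Ifi203 (4.41) and the fibril-associated collagen Col14a1 (4.24) were also among the 12 largest rises. The call of Col14a1 was lost without B5 replicate 1 and without the library labelled B6hr replicate 1, and the other 11 calls held without each of the 6 libraries in turn.

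The largest falls were led by genes of secreted signals. Cer1 (chr4:82881751-82885148), a secreted antagonist of BMP, Nodal and WNT, had levels of 0.536, 0.674 and 1.60 in B5, against 199, 40.4 and 18.7 in B6hr. The B5 libraries were near the bottom of the scale and the B6hr libraries spread widely above them. The log2 change was −4.86 ± 0.73 (SE, n = 3 each; limma adjusted p = 2.7e-05).

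Trh, which encodes thyrotropin-releasing hormone, had levels of 33.6, 75.0 and 47.8 in B5, against 2116, 1173 and 531 in B6hr. Every B5 library lay below every B6hr library, and the change was −4.44 ± 0.65 (limma adjusted p = 1.8e-05). Pou3f1, a POU factor of epiblast and early neural cells, had levels of 87.6, 42.9 and 29.2 in B5, against 637, 726 and 258 in B6hr, a change of −3.33 (limma adjusted p = 3.7e-06). Ptgds (−3.64), the prostaglandin D synthase, the cadherin Cdh18 (−2.90), the neuropeptide precursor Vgf (−2.80), the caveolar protein Cav1 (−2.69) and the potassium channel Kcnj3 (−2.61) followed. Adamtsl3 (−2.49), the urea transporter Slc14a1 (−2.49), Vrtn (−2.47) and the carbonic anhydrase Car2 (−2.45) complete the 12. Slc14a1 was not called without B6hr replicate 1 or 2, nor Vrtn without B5 replicate 1 or B6hr replicate 1.

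**Figure D2:**
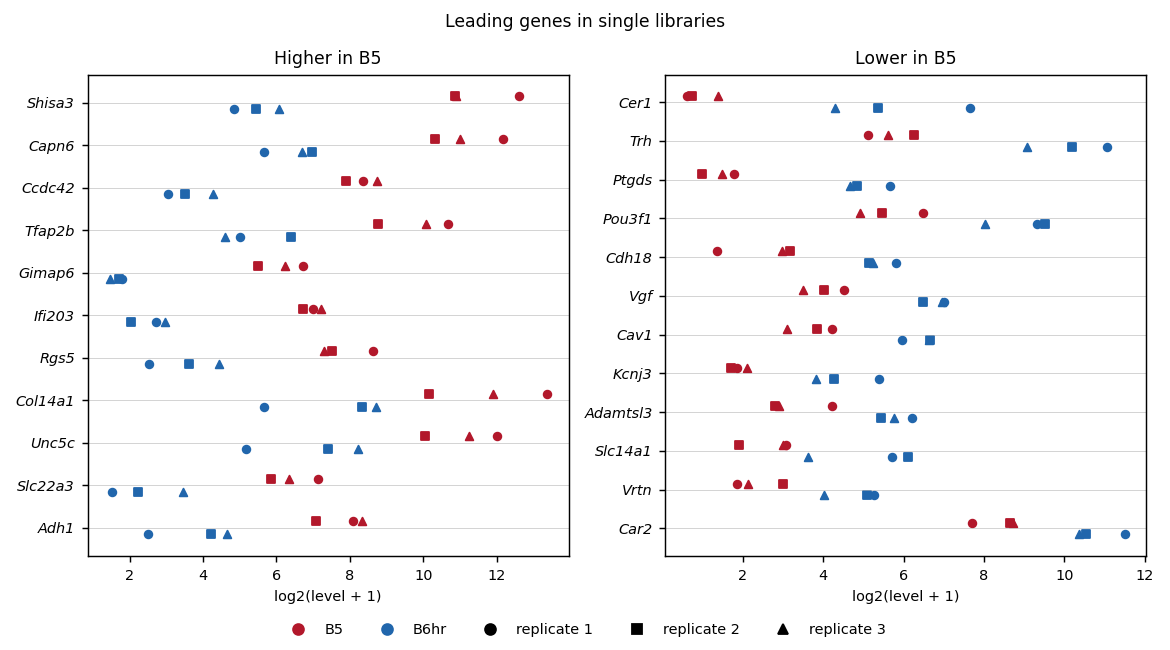
log2(level + 1) in each B5 (red) and B6hr (blue) library for 11 of the 12 largest rises (left) and the 12 largest falls (right) among called genes; marker shapes give the replicate number. For each gene the red and blue points do not overlap, which the choice of the genes required.

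Genes of the lateral mesoderm rose in B5: of 18 in the list 10 rose, 0 fell and 8 were not called, with a median log2 change of 1.49 against 0.06 over all genes. Among them were Hand1, Hand2, Foxf1, Gata5, Gata6, Tbx5, Tbx2, Prrx1 and Prrx2, all transcription factors of lateral plate, heart or limb mesoderm. Leaving out the library labelled B6hr replicate 1 left 5 risen, with a median of 1.01. Without B5 replicate 1, 6 rose. With the 6 libraries fitted alone 5 rose.

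Hand1 (chr11:57828705-57832818), a helix-loop-helix factor of lateral and extraembryonic mesoderm, had levels of 824, 1266 and 1028 in B5, against 7.41, 133 and 259 in B6hr. The groups lay apart, and the B6hr libraries differed widely among themselves. The log2 change was 3.95 ± 0.91 (limma adjusted p = 0.0024), and 2.45 (limma adjusted p = 0.051) without the library labelled B6hr replicate 1.

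Hand2 (chr8:57320983-57324633), its paralog, had levels of 2012, 845 and 1562 in B5, against 28.4, 186 and 380 in B6hr. The change was 3.44 ± 0.80 (limma adjusted p = 0.0026), and 2.38 (limma adjusted p = 0.046) without the library labelled B6hr replicate 1. Gata5 (chr2:180325133-180334699), a zinc finger factor of heart and endoderm, had levels of 1288, 980 and 1587 in B5, against 16.9, 138 and 295 in B6hr, a change of 3.80. Tbx5, a T-box factor of heart and forelimb, had levels of 640, 237 and 325 in B5, against 9.70, 35.2 and 46.9 in B6hr, a change of 3.80. Neither gene's groups overlapped, and both calls held without each of the 6 libraries in turn, as did that of Hand2. The summed level of the defining markers Hand1, Hand2 and Foxf1 ranged from 2369 to 3179 in B5 and from 80.4 to 745 in B6hr. Under RA alone it ranged from 299.9 to 417.2 in R5 and from 211.7 to 1275 in R6hr.

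Neural crest genes showed the same direction, with 11 of 19 risen, where 17.2% of all genes rose, 0 fallen and a median log2 change of 1.68. When the library labelled B6hr replicate 1 was left out, 5 rose and 1 fell; without B5 replicate 1, 6 rose. Foxd3, a factor of early crest, had levels of 1576, 496 and 184 in B5, against 19.9, 74.6 and 39.5 in B6hr. Its groups did not overlap and its B5 libraries differed widely among themselves, with a change of 3.72 ± 0.84 (limma adjusted p = 0.0021).

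Tfap2b, an AP-2 factor of crest and dorsal ectoderm, had levels of 1629, 433 and 1071 in B5, against 31.2, 82.8 and 23.2 in B6hr, a change of 4.50 (limma adjusted p = 0.0012). Sox9 rose by 2.26, and Erbb3, a neuregulin receptor of crest and glia, by 1.02. The crest and glial factor Sox10 had levels of 399, 122 and 232 in B5, against 8.84, 49.8 and 38.6 in B6hr, a change of 3.06 (limma adjusted p = 0.0063). Without the library labelled B6hr replicate 1 the change of Sox10 was 2.33 (limma adjusted p = 0.068), while the calls of Foxd3, Tfap2b, Sox9 and Erbb3 held. The summed level of Sox10, Foxd3 and Tfap2b ranged from 1051 to 3604 in B5 and from 59.9 to 207 in B6hr. The other called crest members were Snai1, Snai2, Ets1, Ngfr, Twist1 and Sox5.

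**Figure D3:**
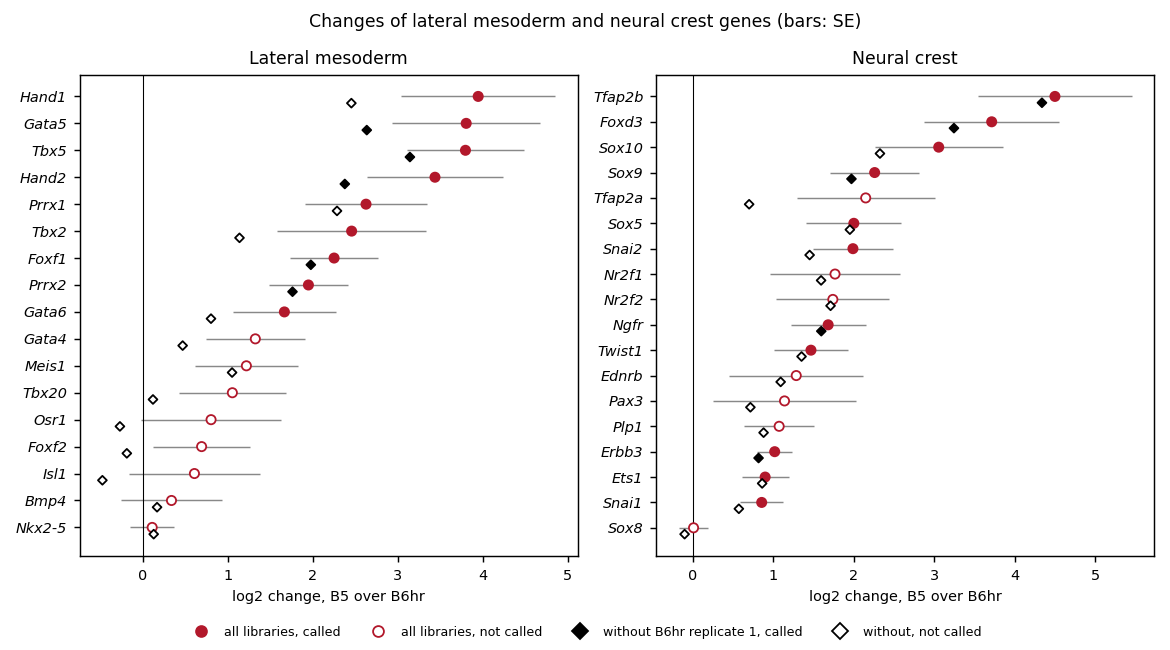
log2 change of B5 over B6hr, with SE, for members of the lateral mesoderm (left) and neural crest (right) lists with all libraries (circles), and the change without the library labelled B6hr replicate 1 (diamonds); filled symbols have an adjusted p under 0.05. The diamonds of most lateral mesoderm genes lie nearer to 0 than the circles.

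Endothelial and blood genes rose in 7 of 14 measured members, where 17.2% of all genes rose, with 0 fallen and a median of 1.22. The number risen was 5 without the library labelled B6hr replicate 1, 4 without B5 replicate 1 and 2 without B5 replicate 3. Tek, the angiopoietin receptor, had levels of 158, 190 and 168 in B5, against 53.7, 67.9 and 40.3 in B6hr. The libraries of each group lay close together, with a change of 1.68 ± 0.29 (limma adjusted p = 0.00012). The embryonic globin Hba-x had levels of 49.3, 5.74 and 52.3 in B5, against 0.462, 0.858 and 0.565 in B6hr, a change of 4.02. Erg (1.39) and Fli1 (2.04), ETS factors of endothelium and blood, rose, as did Tal1, Hbb-bh1 and Sox17. Erg was not called without B5 replicate 3 or B6hr replicate 3, nor Fli1 without B5 replicate 1 or 3. Pecam1 and Cdh5, which also define endothelium, did not pass, and the summed level of Tek, Cdh5 and Pecam1 was 419 to 494 in B5 and 168 to 346 in B6hr.

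In the surface ectoderm list 6 of 18 rose and 1 fell, where 17.2% of all genes rose and 11.2% fell, and the median was 0.26. Without the library labelled B6hr replicate 1, 4 rose. Of its 6 keratins Krt8, Krt18 and Krt19 rose, while Krt5 (0.33), Krt7 (0.37) and Krt14 (−0.68) did not pass. Krt8 had levels of 1496, 1109 and 1238 in B5, against 331, 480 and 532 in B6hr, a change of 1.53 ± 0.20 (limma adjusted p = 4.4e-06). The groups lay apart with little spread in B5. Its partner Krt18 rose by 1.53, Krt19 by 1.52 and Trp63, a p53-family factor of stratified epithelium, by 2.46, and the claudins Cldn6 and Cldn7 were called too. Grhl3, a grainyhead factor of non-neural ectoderm, had levels of 42.4, 50.0 and 42.2 in B5, against 198, 168 and 157 in B6hr, and fell by 1.93 (limma adjusted p = 5.5e-05). In the endoderm list 4 of 12 rose with a median of 1.31 (2 without the library labelled B6hr replicate 1 and 2 without B5 replicate 1). These were Ttr, the transthyretin gene (3.53), Foxa2 (1.60), Gata6 (1.67) and Sox17 (1.23). Gata6 was also in the lateral mesoderm list, Sox17 in the endothelial list and Foxa2 in the intermediate and ventral list. The summed level of Sox17, Foxa2 and Ttr was 291 to 533 in B5 and 89.7 to 232 in B6hr. Under RA alone it was 422 to 734 in R5 and 122 to 249 in R6hr.

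In the BMP pathway itself, 4 of 27 measured ligands, receptors and antagonists rose and 4 fell, shares close to those of all genes. The ligand Bmp5 had levels of 345, 208 and 567 in B5, against 32.1, 39.9 and 112 in B6hr, a change of 2.69 ± 0.56 (limma adjusted p = 0.001). All B5 libraries were above all B6hr libraries, and the call held without each of the 6 libraries in turn. The ligands Bmp7 (0.88) and Gdf7 (2.03) and the receptor Acvr2a (0.53) rose. The ligand Bmp2 (−0.65) and the antagonists Fst (−1.24), Nbl1 (−1.39) and Cer1 fell. Without the library labelled B6hr replicate 1, Bmp5 alone of these 4 rises was called, and of the falls Cer1 and Nbl1 were called. Without B5 replicate 1, 1 rise and 2 falls remained called, and without B5 replicate 3, 2 and 3.

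Genes of RA metabolism and response rose in 6 of 22 measured members and fell in 2, where 17.2% of all genes rose and 11.2% fell. Their median log2 change was 0.77. When the library labelled B6hr replicate 1 was omitted, 6 rose and 1 fell, and over all 6 omissions the number risen was between 5 and 7. The number fallen was 0 without B5 replicate 3 and 1 without B5 replicate 1 or B6hr replicate 2. Cyp26b1 (chr6:84571414-84593908), which degrades RA, had levels of 4295, 3421 and 6787 in B5, against 224, 361 and 689 in B6hr. The groups lay far apart, with a change of 3.60 ± 0.61 (limma adjusted p = 0.00012). Cyp26a1, which has the same activity, had levels of 626, 760 and 1771 in B5, against 928, 727 and 1250 in B6hr, and its groups overlapped fully (limma adjusted p = 1.0).

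The RA-induced gene Stra8 rose by 2.41, with levels of 1172, 1187 and 1658 in B5, against 205, 231 and 323 in B6hr. Rdh10 (1.08) and Aldh1a2 (1.44), which make RA from retinol in 2 steps, the receptor Rxra (0.36) and the binding protein Crabp1 rose as well, while the receptor Rarg (−0.98) and the transglutaminase Tgm2 (−1.35) fell. Aldh1a2 was not called without any 1 of 4 libraries, namely B5 replicates 1 and 3 and B6hr replicates 2 and 3. The receptor Rarb, an RA target, had a change of 1.46 that did not pass (limma adjusted p = 0.12).

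Hox genes of paralog groups 6 to 9, which mark thoracic levels, rose in 8 of 12 with 0 fallen and a median of 1.78. Of groups 1 to 5, 3 of 15 rose, a share near the 17.2% of all genes, with 0 fallen and a median of 0.96. Without the library labelled B6hr replicate 1 these counts were 2 and 0, without B5 replicate 1 they were 4 and 0, and without B5 replicate 3 they were 3 and 0, while without B5 replicate 2 they were 11 and 6. Hoxa9 had levels of 486, 240 and 689 in B5, against 22.2, 91.8 and 91.1 in B6hr, a change of 2.89 ± 0.68 (limma adjusted p = 0.003). B5 replicate 2 was the lowest of its group, yet above all 6 h libraries. Hoxd9 (1.96), Hoxc6 (2.20) and Hoxc9 (2.85) rose, and Hoxc4 (1.75), Hoxc5 (1.73) and Hoxa4 (1.49) of the anterior groups. The annotated spans of the Hoxc genes overlap, so reads may be shared among them. Hoxb1 (0.68), Hoxb2 (1.08) and Hoxb4 (0.40) did not pass.

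Dorsal progenitor and roof plate genes rose in 6 of 25, where 17.2% of all genes rose, fell in 1 and had a median of 1.72. The number risen was 0 without the library labelled B6hr replicate 1 or without B5 replicate 1, and 2 without B5 replicate 3. Neurog1, the proneural factor of dI2 progenitors, had levels of 1679, 336 and 720 in B5, against 52.3, 177 and 94.6 in B6hr, a change of 2.94 (limma adjusted p = 0.025). B5 replicate 1 was its highest library, and the groups did not overlap. Gdf7, a roof plate ligand (2.03), the WNT enhancer Rspo3 (1.75) and Zic1 (2.47) rose too.

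Pax3 (1.14), Pax7 (1.48), Olig3 (2.21), Atoh1 (0.37), Neurog2 (2.02), Lmx1a (1.95) and Wnt1 (2.43) did not pass, and the adjusted p of Pax7 was 0.055. Olig3, of the dorsalmost progenitors, had levels of 1320, 335 and 765 in B5, against 44.5, 259 and 288 in B6hr.

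General neural genes had few calls over the same interval. The summed level of 5 neural progenitor markers was 9975 to 14250 in B5 and 10980 to 19480 in B6hr, and that of 4 pluripotency markers 378 to 1183 in B5 and 844 to 1589 in B6hr. Of 18 pan-neural progenitor genes 1 rose (Vim, 1.03), 0 fell and the median was 0.09. Vim was not called without B5 replicate 1 or 3 or B6hr replicate 1 or 3, and 3 genes of the list were called lower without B6hr replicate 3. After quantile normalization or median scaling 0 of the 18 rose. Under RA alone, 3 of the 18 rose and 0 fell in R5 over R6hr, with a median of 0.95. There the summed level of the 5 neural progenitor markers was 21310 to 28250 in R5 and 9094 to 22640 in R6hr. No member of the list was called in the difference between the changes of the 2 arms. Sox2 had levels of 4275, 4976 and 5369 in B5, against 7976, 6327 and 4312 in B6hr, and its groups overlapped (change −0.31, limma adjusted p = 0.46). Sox1 (−1.22) and Pax6 (−0.21) did not pass either. The Notch ligands Jag1 (−0.81) and Jag2 (−0.45) fell, but neither was called without the library labelled B6hr replicate 1.

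Among 22 pan-neuronal genes 3 fell, a share near the 11.2% of all genes, and 0 rose, with a median of −0.30. Gap43 (chr16:42248442-42340651), a growth cone protein, had levels of 304, 240 and 259 in B5, against 1285, 990 and 838 in B6hr, and fell by 1.93 (limma adjusted p = 4.4e-06). Stmn2, a microtubule regulator of axons, fell by 1.65, and Ina, an intermediate filament of neurons, by 1.37. All 3 calls held without the library labelled B6hr replicate 1, and 1 remained without B5 replicate 3. Tubb3, the neuronal tubulin, had levels of 2829, 536 and 390 in B5, against 416, 1414 and 759 in B6hr, with B5 replicate 1 high and the groups overlapping. The summed level of Tubb3, Dcx, Elavl3 and Stmn2 was 797 to 4901 in B5 and 1181 to 3097 in B6hr. Without B5 replicate 1 the list again had 3 fallen and 0 risen.

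Of the interneuron lists, dI1 to dI3 had 1 of 16 risen (Foxd3). The list named dI4 to dI6, in which En1 and Evx1 were placed, had 3 of 15 risen and 2 fallen. These dI4 to dI6 shares were near the 17.2% and 11.2% of all genes. En1, a homeobox factor, had levels of 475, 182 and 282 in B5, against 71.9, 86.0 and 60.4 in B6hr (change 1.99), and Wt1, a zinc finger factor, rose by 1.82 and Pou2f2 by 1.07. Evx1, which was also in the caudal progenitor list, fell by 2.43, and Sall3 by 1.13. In the intermediate and ventral list 1 of 14 rose, Foxa2. Of 17 caudal progenitor genes 1 fell, Evx1, which was not called without B5 replicate 1. The summed level of the caudal markers T, Nkx1-2 and Cdx4 was 66.9 to 481 in B5 and 546 to 2671 in B6hr. These ranges did not overlap, and Nkx1-2 (−2.64, limma adjusted p = 0.053) was just short of a call. Of 20 pluripotency genes 1 fell, Klf5 (−1.24), which was not called without B5 replicate 1 or 3 or B6hr replicate 2 or 3. Pou5f1 had a change of −1.42 (limma adjusted p = 0.13) and Nanog 0.67 (limma adjusted p = 0.52).

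Of 26 axon guidance genes 5 rose and 2 fell, shares near the 17.2% and 11.2% of all genes, with a median of 0.82; 1 rose without B5 replicate 1, 2 without the library labelled B6hr replicate 1, 3 without B5 replicate 3 and 12 without B5 replicate 2. The ligand Ntn1 (chr11:68209364-68400823), netrin 1, had levels of 678, 935 and 914 in B5, against 8295, 4301 and 2627 in B6hr. All B5 libraries were below all B6hr libraries, and Ntn1 fell by 2.44 (limma adjusted p = 4e-06), against a rise of its receptor Unc5c. The semaphorin receptor Plxna4 (2.82), the ephrin receptor Epha7 (1.26), Efnb2 and Sema6d (2.13) rose, and Epha4 (−0.50) fell. Of 21 collagen, laminin and matrix protease genes 5 rose, among them Adamts1 (2.69) and Col4a1 (0.89), and Lama5 (−0.80) fell; 1 rose without the library labelled B6hr replicate 1 or B5 replicate 1. The cadherins Cdh3 (1.54) and Cdh7 (1.46) rose, and Cdh4 (−0.55) and Pcdh19 (−1.36) fell, of 15 measured. Without the library labelled B6hr replicate 1 or without B5 replicate 1 only Pcdh19 of these 4 was called, and without B5 replicate 2 the list had 4 risen.

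Small falls were called for 4 of 15 genes of the amino acid stress response, led by its factor Atf4 with levels of 2690, 3280 and 2705 in B5, against 4216, 4265 and 4171 in B6hr (change −0.55, limma adjusted p = 0.003). Chac1 (−1.18), Slc3a2 (−0.49) and Atf5 (−0.44) were the others, and Atf4 alone was called without the library labelled B6hr replicate 1. Of 14 p53 targets Mdm2 (−0.40), Phlda3 (−0.41), Zmat3 (−0.33) and Aen (−0.52) fell and Fas (0.75) rose, and of these Mdm2 was called without that library. Without B5 replicate 1 each of these lists had 1 fallen. In the FGF list of 22 the ligands Fgf15 (−1.30) and Fgf18 (−1.28) and the feedback inhibitor Spry4 (−1.60) fell and Etv1 (0.61) rose. The share fallen was near the 11.2% of all genes. Fgf15 and Etv1 were called without the library labelled B6hr replicate 1, and Fgf18 and Spry4 were not. The list had 1 fallen without B5 replicate 1 or B6hr replicate 2 and 6 without B6hr replicate 3. Of 15 paraxial mesoderm genes Tcf15 (−2.22) and Cer1 fell, and Pax9 (1.46) and Aldh1a2 rose. Tcf15 was not called without the library labelled B6hr replicate 1, and the other 3 were. The list had 0 risen without B5 replicate 3 or B6hr replicate 2 and 5 fallen without B6hr replicate 3.

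The remaining lists held few calls. The imprinted cell cycle inhibitor Cdkn1c rose by 1.38 as 1 of 21 cell cycle genes, Fzd1 (1.48) as 1 of 24 WNT ligands and receptors, and the oxygen sensor Egln1 (0.46) as 1 of 16 hypoxia genes. The immediate early gene Egr3 (−1.62) fell as 1 of 16, and of 16 cholesterol genes 1 fell and 0 rose. Of these lists, the cell cycle, WNT and hypoxia lists had 0 risen and the cholesterol list 0 fallen without the library labelled B6hr replicate 1, and likewise without B5 replicate 1. Egr3 was called without each of those libraries, and was not called without B5 replicate 3. None of 15 WNT targets and antagonists and none of 17 smooth muscle and mesenchyme genes was called with limma-trend on all libraries.

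**Figure D4:**
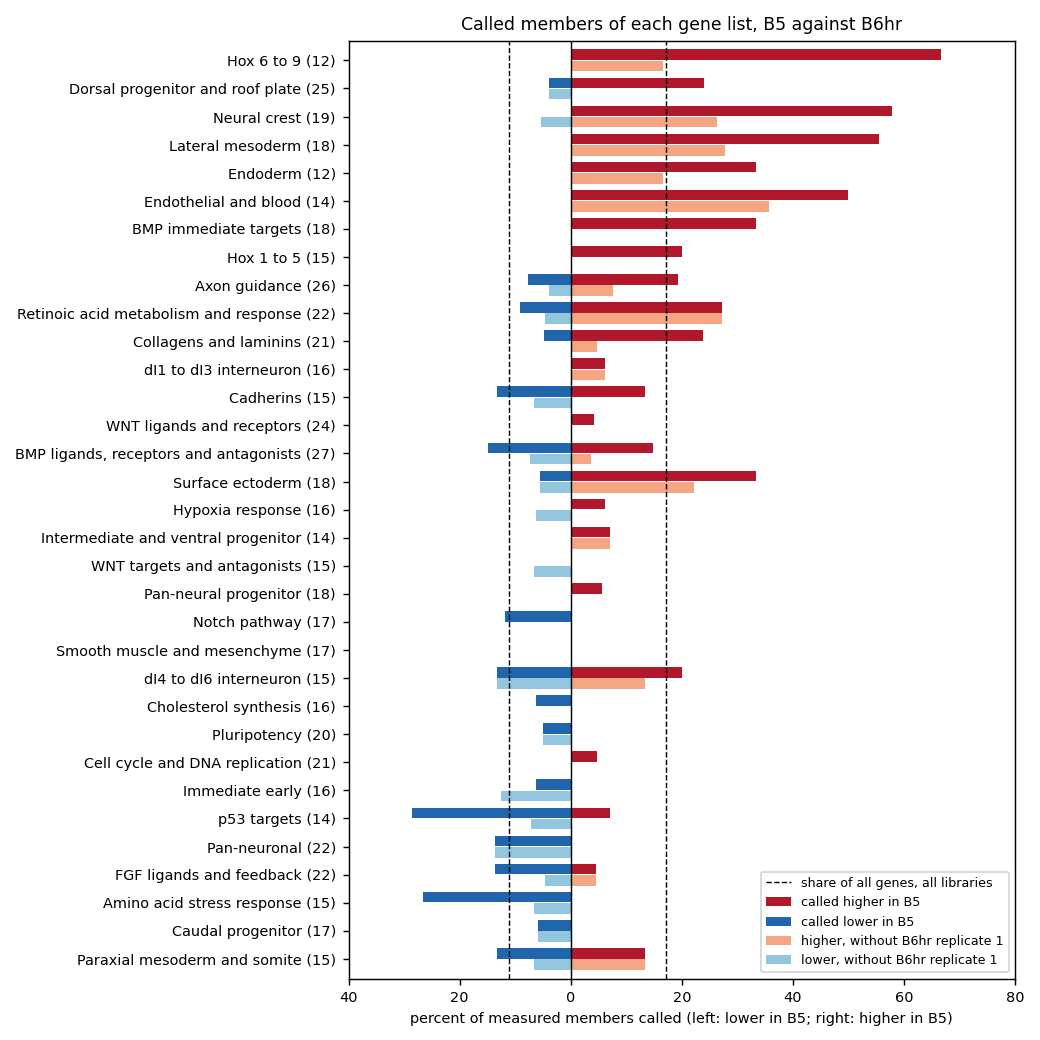
Percent of the measured members of each list (number in brackets) called higher (right) or lower (left) in B5 than in B6hr, with all libraries (dark) and without the library labelled B6hr replicate 1 (light); dashed lines give the share of all genes, 17.2% higher and 11.2% lower. Hox 6 to 9, neural crest and lateral mesoderm have the longest dark bars.

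Under RA alone, R5 was set against R6hr in the same way, and 2148 genes (19.1%) were called, 1362 (12.1%) higher and 786 (7.01%) lower in R5. The comparison rests on the 6 h libraries described above: leaving out R5 replicates 2 or 3 gave 762 or 823 genes, and leaving out R6hr replicates 1 or 3 gave 1158 or 1153. With R6hr replicates 2 and 3 both left out, 332 were called. Several leading changes of the BMP4 arm had a counterpart here. Trh had levels of 59.6, 16.4 and 8.95 in R5, against 1211, 778 and 486 in R6hr, a change of −5.14. Cer1 changed by −5.61, Tfap2b by 5.81, Unc5c by 3.80, Stra8 by 2.27 and Ccdc42 by 3.70, all with a limma adjusted p under 0.05. Of the BMP immediate targets 0 rose and 1 fell in R5, and of the lateral mesoderm list 1 rose and 1 fell. Of 25 dorsal progenitor and roof plate genes 6 rose and 1 fell in R5, the same counts as in B5. Of 18 surface ectoderm genes 5 rose and 2 fell, and of 12 endoderm genes 3 rose and 2 fell. No member of the dorsal, surface ectoderm or endoderm lists was called in the difference of changes tested below. Of 26 axon guidance genes 6 rose and 1 fell, and of 21 collagen, laminin and matrix protease genes 5 rose and 1 fell. Of 12 Hox genes of groups 6 to 9, 4 rose and 0 fell in R5, with a median of 1.62, and of 17 caudal progenitor genes 0 rose and 6 fell. The summed level of the crest markers Sox10, Foxd3 and Tfap2b was 1019 to 6012 in R5 and 53.7 to 116 in R6hr, and of the crest list 3 rose and 1 fell.

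The difference between the B5 over B6hr change and the R5 over R6hr change was tested for every gene, and 59 (0.526%) were called, 42 (0.374%) with the larger value in the BMP4 arm and 17 (0.152%) with the smaller. At an unadjusted p under 0.05 there were 1028. The count depended on single libraries: leaving out B5 replicates 1, 2 or 3 gave 28, 29 or 36, and leaving out B6hr replicates 1, 2 or 3 gave 11, 20 or 120. In the RA arm, leaving out R5 replicates 1 or 2 gave 28 or 26, and leaving out R6hr replicates 1, 2 or 3 gave 139, 22 or 14. With the replicate number of the 6 h libraries as a block, 131 were called. It was 49 with both 6 h libraries numbered 1 left out, and 7 with B6hr replicate 1 and R6hr replicates 2 and 3 left out, the 3 libraries that went against their labels. These omissions were chosen after seeing the data, and the lone R6hr library is then taken to vary like the other groups.

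Npbwr1, a neuropeptide receptor, had levels of 20.3, 32.4 and 38.7 in B5, against 1.97, 3.43 and 3.73 in B6hr, and of 3.41, 1.46 and 2.32 in R5, against 11.8, 8.88 and 12.1 in R6hr. It rose in one arm and fell in the other, and the groups of each arm lay apart. The difference of the changes was 4.78 ± 0.70 (SE; limma adjusted p = 0.00045), and 4.69 (limma adjusted p = 0.044) with those 3 libraries left out. The metalloprotease Adamts8 differed the other way, with levels of 151, 144 and 119 in B5, against 199, 270 and 291 in B6hr, and of 254, 265 and 271 in R5, against 152, 151 and 195 in R6hr. Its difference of −1.53 ± 0.27 (limma adjusted p = 0.0048) was −1.81 (limma adjusted p = 0.039) without the 3 libraries. For both genes the call also held without each of the 12 libraries in turn.

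Rgs5 had levels of 3.89, 5.16 and 4.78 in R5, against 4.19, 15.2 and 30.0 in R6hr, where B5 had reached at least 157. Its difference was 5.58 (limma adjusted p = 0.001), called without each of the 12 libraries, and 3.68 (limma adjusted p = 0.37) with the 3 left out. Hand1 had levels of 22.0, 9.23 and 14.1 in R5, against 5.05, 206 and 359 in R6hr. R6hr replicates 2 and 3, labelled RA alone, were as high as B6hr replicates 2 and 3. The difference of Hand1 was 6.27 (limma adjusted p = 0.015), and 1.12 (limma adjusted p = 0.98) with the 3 libraries left out.

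**Figure D5:**
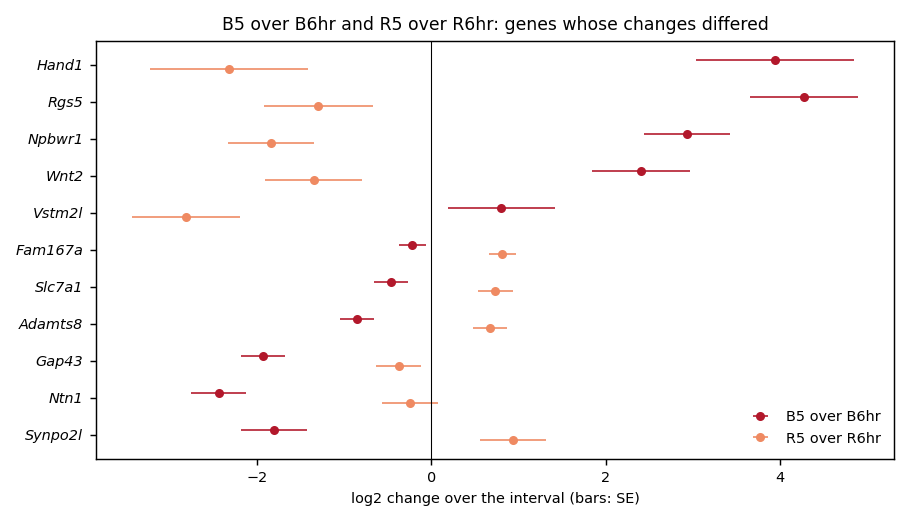
log2 change with SE of B5 over B6hr (red) and of R5 over R6hr (orange) for 11 of the 12 genes with the largest called differences of these changes. For 9 genes the 2 changes have opposite signs.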

How the data were processed

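Bulk mRNA libraries (NuGEN kit, NovaSeq, per the labels' protocols) were compared. The levels deposited by the authors are a normalized signal whose unit the header does not state. They cannot be read counts, since 0 of the levels are exactly 0 and 1 is exactly whole. The depth of each library is therefore unknown, and the levels of B5 and B6hr libraries sum to 13681024 to 14844101. Columns headed fpkm, deposited by the authors, equal the level to the power 0.301 times constants and are treated here as an unused score. The authors' deposited log2 fold change of this comparison is B6hr over B5. The authors' deposited p-values and false discovery rates fit an adjustment over 16014 genes. The submitters' processing notes list Picard, edgeR and the build mm10 without a role; the aligner, counter, annotation and strand setting were not given in the sources used here. Sense and antisense transcripts, and genes with near-identical copies such as keratins, embryonic globins, Pou5f1 and Nanog, may share reads.

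Levels were tested as log2(level + 1), which understates the change of low genes, with limma 3.58.1 in R 4.3.3 (trend and robust empirical Bayes, all 45 libraries of 15 groups in 1 fit). P-values were adjusted by the Benjamini-Hochberg method over 11220 genes, and genes were called under 0.05. These adjusted p-values are smaller than those from an adjustment over the 16014 genes the authors tested. With that adjustment 2633 genes were called between B5 and B6hr, and 13 of the 126 called genes named by rule lost their call. A filter of level 1 in 3 libraries removed 0 genes. Tested on simulated data first, the fit was then run on the deposited table. Named genes are up to 12 per direction with the largest changes, taken from called genes with no overlap between groups and a higher mean of 20 or more, up to 4 called members per direction of each of 33 lists, a set of marker genes, and up to 6 per direction of the difference. Called list members outside this rule are given by name. Results of some genes are not reported here. Members and lists were chosen with earlier results of these data known. Gene coordinates were taken from GENCODE M21 (mm10) for 10766 genes; the named genes are annotated as protein-coding. Of 22 symbols turned into dates, 19 were restored. The design text gives 3 independent differentiations, but no label ties replicate numbers to them. Same-numbered B6hr and R6hr libraries deviated together in all 3 pairs. After this was seen, the number was also used as a block in the difference of changes. Whether it marks a true pairing was not tested. Protocol and titles differ by 1 day on the RA interval; titles were followed. Alternatives were other library sets, a replicate block, pseudocounts of 0.1 and 5, filters, scalings, array weights and thresholds. Plots used Python 3.11.15 and matplotlib 3.10.9.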

Additional observations from a re-analysis of the deposited data

Results flagged for a closer look

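Each gene below had a change from B6hr to B5 that differed from its change from R6hr to R5, by a limma test of the difference itself. The differences (log2) were 5.58 for Rgs5, 4.78 for Npbwr1 and −1.53 for Adamts8, which held without each of 12 libraries in turn. They were −2.75 for Synpo2l, −2.20 for Ntn1 and 6.27 for Hand1, which lost the call without 1, 3 and 4 single libraries in that order. They were 3.76 for Wnt2, −1.03 for Fam167a, −1.20 for Slc7a1, 3.62 for Vstm2l and −1.56 for Gap43, which lost it without 7 to 10 of the 12.

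Ntn1 fell in B5, and under RA alone it had levels of 3470, 3141 and 2985 in R5, against 5224, 4166 and 2495 in R6hr. Gap43 likewise had 1077, 1031 and 1176 in R5, against 2237, 1577 and 813 in R6hr. With B6hr replicate 1 and R6hr replicates 2 and 3 left out, the limma adjusted p was under 0.05 for Npbwr1 (0.044) and Adamts8 (0.039) and above it for the other 9. That fit has fewer libraries, and its part in the lost calls was not tested.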

How the results depend on the processing

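For B5 over B6hr (3182 genes), 1181 were called with the 6 libraries alone, 1242 at a threshold of 0.01 and 1401 to 3598 with single libraries left out. The counts stayed within 1.5 times of 3182 with quantile normalization, median scaling, array weights, the pseudocounts, the filters, a threshold of 0.1, the fit without D0 and D3, the adjustment over all genes tested and the authors' deposited test (2355). Whether the numbers pair B5 with B6hr was not tested. Same-numbered libraries correlated at −0.51, −0.26 and −0.03 in their deviations from the group means. With 3 libraries a group, and B6hr replicate 1 against its label, these values cannot settle the pairing. With the replicate number as a block 3038 genes were called over all libraries and 0 with the 6 libraries alone (2791 at an unadjusted p under 0.05).

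For R5 over R6hr (2148), 5940 were called with array weights, 717 and 3255 at thresholds of 0.01 and 0.1, 332 with R6hr replicates 2 and 3 left out, and 762 to 2757 with single libraries left out. For the difference (59), 20 were called with the compared libraries alone, 89 without D0 and D3, 571 with array weights, 14 and 138 at thresholds of 0.01 and 0.1, 0 with the replicate block in the compared libraries (1017 at an unadjusted p under 0.05), 131 with the block in the paired 6 h libraries only (chosen after seeing the data), 3 with R6hr replicates 2 and 3 left out, 7 with B6hr replicate 1 left out as well, and 11 to 139 with single libraries left out. The cause of these shifts was not tested, other than the smaller number of libraries in some fits.

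Of the 153 named genes, no called one changed sign in B5 over B6hr under these alternatives. Genes that were not called did: with array weights Id4 (−0.36), Smad7 (−0.15), Atoh1 (−0.29), Pax6 (0.083), Cyp26a1 (0.13) and Tubb3 (−0.55), without the library labelled B6hr replicate 1 Id4 (−0.47), Smad7 (−0.38), Pax6 (0.23) and Tubb3 (−0.30), and without B5 replicate 1 Atoh1 (−0.52), Cyp26a1 (0.30) and Tubb3 (−0.74). So did Pax6 (0.08) and Cyp26a1 (0.16) without B5 replicate 2, Hoxb1 (−0.17) without B5 replicate 3, Cyp26a1 without B6hr replicate 3 (0.20) and at a pseudocount of 5 (0.00), and Tubb3 (−0.040) with median scaling. Over the single omissions the highest or lowest values on the other side of 0 were 1.14 for Id4, 1.10 for Smad7, 0.91 for Atoh1, −0.67 for Pax6, −0.45 for Cyp26a1 and 0.69 for Tubb3. The realised depth per library is unknown, so counting error at low levels cannot be given.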
